A study of Mus musculus with 12 samples.

Results

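The genes described here belong to the synapses of excitatory neurons: 30 genes, taken by symbol from a list of presynaptic genes, postsynaptic genes and markers of cortical or hippocampal neurons. They are 30 of the 15584 genes in the deposited table, and all 30 were among the 13759 genes with enough signal to be tested. They were picked by name and role, with earlier results of these data known. By role, 14 act in the presynaptic terminal, 2 are vesicular glutamate transporters, 11 act at the postsynaptic side and 3 mark the identity of the neuron. RNA was sequenced from the corpus callosum, the white matter tract that joins the cerebral hemispheres, in 12 mouse libraries. The question of the study was how the aryl hydrocarbon receptor (AHR), a ligand-activated transcription factor, acts in microglia, the macrophage-like cells of the brain, during cuprizone treatment, which kills oligodendrocytes and strips axons of myelin. Values are FPKM, in which the fragments of a gene are divided by its transcript length and by the sequencing depth.

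There were 4 groups of 3 libraries. AHR CKO CPZ came from mice lacking AHR in microglia that received cuprizone, and AHR CKO Ctrl from mice of that genotype without it. WT CPZ came from wild-type mice that received cuprizone, and WT Ctrl from wild-type mice without it. The labels name the genotypes only as AHR CKO and WT. The sources used here do not name the Cre line behind the deletion, the strain, the age and sex of the mice, the dose and length of cuprizone, or whether a library was 1 animal or a pool. P-values therefore measure only the spread between these libraries, which may be technical.

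At an excitatory synapse, glutamate is loaded into vesicles by vesicular glutamate transporters, vesicles are docked and fused by the SNARE proteins with synaptotagmin as calcium sensor, and the transmitter opens AMPA and NMDA receptors held in place by the postsynaptic scaffold. The neurons that send axons through the corpus callosum are mostly excitatory cells of the cerebral cortex, and their cell bodies and most of their synapses lie in the adjoining grey matter. A piece of the tract can carry such RNA in axons, in scattered neurons and in grey matter taken along with it. RNA of whole tissue was measured, so fewer neurons in a sample and less synaptic RNA per neuron cannot be told apart.

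The labelled tissue was checked against its markers. The myelin gene Mbp was abundant in the WT control libraries, at 8545 ± 2461 FPKM (SD, n = 3). Neuronal genes were abundant too: Slc17a7, the defining transporter of cortical excitatory neurons, averaged 410.0 FPKM over the 12 libraries, rank 148 of all genes. Summed FPKM of 13 striatal neuron markers ranged from 586 to 3381 across libraries, and that of 7 choroid plexus markers, led by Ttr, from 43.7 to 3748. Total FPKM per library lay between 447156 and 519470, and the 30 synaptic genes took 1.21% to 1.78% of it. Depth, estimated from the steps between the lowest values (12 to 37 values a library), came to 11400000 to 14800000 fragments. The range of values read limits any such answer to 8330000 to 20000000, so the estimate is rough. The libraries fell into 2 kinds in the deposited table: 5 of the 6 WT libraries list no gene at 0 FPKM, whereas WT CPZ replicate 2 and all 6 AHR CKO libraries list 52 to 94 genes at 0. This split nearly follows genotype, so what lies behind it and the genotype cannot be told apart between AHR CKO Ctrl and WT Ctrl libraries, and under cuprizone only WT CPZ replicate 2 shares the kind of the AHR CKO libraries.

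RefSeq promoter windows of build GRCm38.p6, 250 bases before to 50 after a transcription start, were read for 24 of the 30 genes and gave 34 windows. Camk2a was left out of this search. They are shown for 4 genes on which the comparisons turn: Sv2a, which was lower with cuprizone in both genotypes, Bsn and Gria2, which were lower in AHR CKO than in WT mice under cuprizone, and Rab3a, the single gene that was higher there. The windows lie at chr3:96180977-96181276, plus strand (Sv2a), chr9:108190334-108190633, minus strand (Bsn), chr3:80802786-80803085, minus strand (Gria2) and chr8:70754453-70754752, plus strand (Rab3a). Each is written 5′ to 3′ along the gene, with the motifs searched in capitals.

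Sv2a: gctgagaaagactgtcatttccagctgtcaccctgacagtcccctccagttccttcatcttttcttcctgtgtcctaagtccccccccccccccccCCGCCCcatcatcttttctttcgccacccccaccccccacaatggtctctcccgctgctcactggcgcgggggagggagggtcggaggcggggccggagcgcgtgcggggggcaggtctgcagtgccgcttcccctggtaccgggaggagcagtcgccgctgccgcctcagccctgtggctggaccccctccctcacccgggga

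Bsn: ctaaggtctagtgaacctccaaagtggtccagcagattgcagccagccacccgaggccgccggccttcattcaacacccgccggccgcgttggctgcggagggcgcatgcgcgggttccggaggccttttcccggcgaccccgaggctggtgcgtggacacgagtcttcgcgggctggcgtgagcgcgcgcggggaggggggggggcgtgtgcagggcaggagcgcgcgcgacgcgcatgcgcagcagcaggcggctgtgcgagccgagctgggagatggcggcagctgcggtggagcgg

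Gria2: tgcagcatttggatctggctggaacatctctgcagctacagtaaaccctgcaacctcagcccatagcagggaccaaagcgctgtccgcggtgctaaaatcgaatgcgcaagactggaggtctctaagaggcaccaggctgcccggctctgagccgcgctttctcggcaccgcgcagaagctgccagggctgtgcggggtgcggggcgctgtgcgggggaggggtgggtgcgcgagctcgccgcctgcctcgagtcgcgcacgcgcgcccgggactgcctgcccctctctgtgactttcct

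Rab3a: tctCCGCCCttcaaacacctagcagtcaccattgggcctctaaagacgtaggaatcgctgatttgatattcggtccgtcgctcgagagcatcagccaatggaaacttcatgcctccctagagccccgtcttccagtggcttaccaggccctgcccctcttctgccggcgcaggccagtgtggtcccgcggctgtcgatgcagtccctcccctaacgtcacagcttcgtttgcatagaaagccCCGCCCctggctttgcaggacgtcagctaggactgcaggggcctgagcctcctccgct

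The motifs were the GC box (GGGCGG), the cAMP response element (TGACGTCA) and the TATA box (TATAAA), on both strands. Sv2a held 1 GC box and Rab3a 2, while the windows of Bsn and Gria2 held none of the 3 motifs. A GC box stood in 17 of the 34 windows, against 35.7% of all 32851 mouse windows. A cAMP response element stood in 1 window, that of Syn1 (2.94%, against 1.79% of all windows), and a TATA box in 2, both of Sv2b (5.88%, against 13.6%). A window was read for 5 of the 8 genes lower in AHR CKO than in WT mice under cuprizone, and Camk2a, 1 of the 8, was not searched. Of the 5, 1 (Rims1) held a GC box, against 15 of the 18 genes with a window that did not pass that test. These counts describe letters in the windows and were not tested.

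Levels over all 12 libraries, in FPKM and so per transcript length, spanned a wide range. Nrgn, which encodes the calmodulin-binding postsynaptic protein neurogranin, was the most abundant at a mean of 1230.2 FPKM, rank 20 of all genes. Snap25, a SNARE of the presynaptic membrane, followed at 952 FPKM (rank 30). Next stood Camk2a, the alpha subunit of calcium/calmodulin-dependent kinase II, at 522 FPKM, Vamp2, the vesicle SNARE, at 521, Syp, the vesicle membrane protein synaptophysin, at 509, and Rab3a, a vesicle GTPase, at 428. Among the least abundant were Bsn, which encodes the active zone scaffold Bassoon, at 21.9 FPKM, and Slc17a6, the glutamate transporter typical of subcortical neurons, at 7.29. The NMDA receptor subunit genes Grin2b and Grin2a were the lowest, at 2.37 and 2.19 FPKM, whereas the obligate subunit gene Grin1 averaged 106 FPKM.

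The genes also differed in how far they varied. The highest library stood 1.36 times above the lowest for Vamp2, 1.40 times for Rbfox3, the gene of the neuronal nuclear marker NeuN, and 1.41 times for Grin1. For Rims1, the active zone protein RIM1, this ratio was 5.14, for Slc17a6 5.15, for Grin2b 14.0 and for Grin2a 17.8. Grin2a and Grin2b, the genes of lowest FPKM, thus had the widest spread.

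The mean log2(FPKM + 1) over the 30 genes was 6.49 ± 0.14 in AHR CKO CPZ, 6.76 ± 0.10 in AHR CKO Ctrl, 6.72 ± 0.12 in WT CPZ and 6.79 ± 0.11 in WT Ctrl libraries (SD, n = 3 each). The AHR CKO CPZ libraries ranged from 6.34 to 6.62 and all lay below the AHR CKO Ctrl libraries (6.68 to 6.87), while the WT CPZ (6.58 to 6.80) and WT Ctrl libraries (6.67 to 6.88) overlapped. Single libraries moved many of the genes together. AHR CKO CPZ replicate 1 was the lowest of its group for 21 of the 30 genes, WT CPZ replicate 1 for 19, and AHR CKO Ctrl replicate 3 was the highest of its group for 19.

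**Figure D1:**
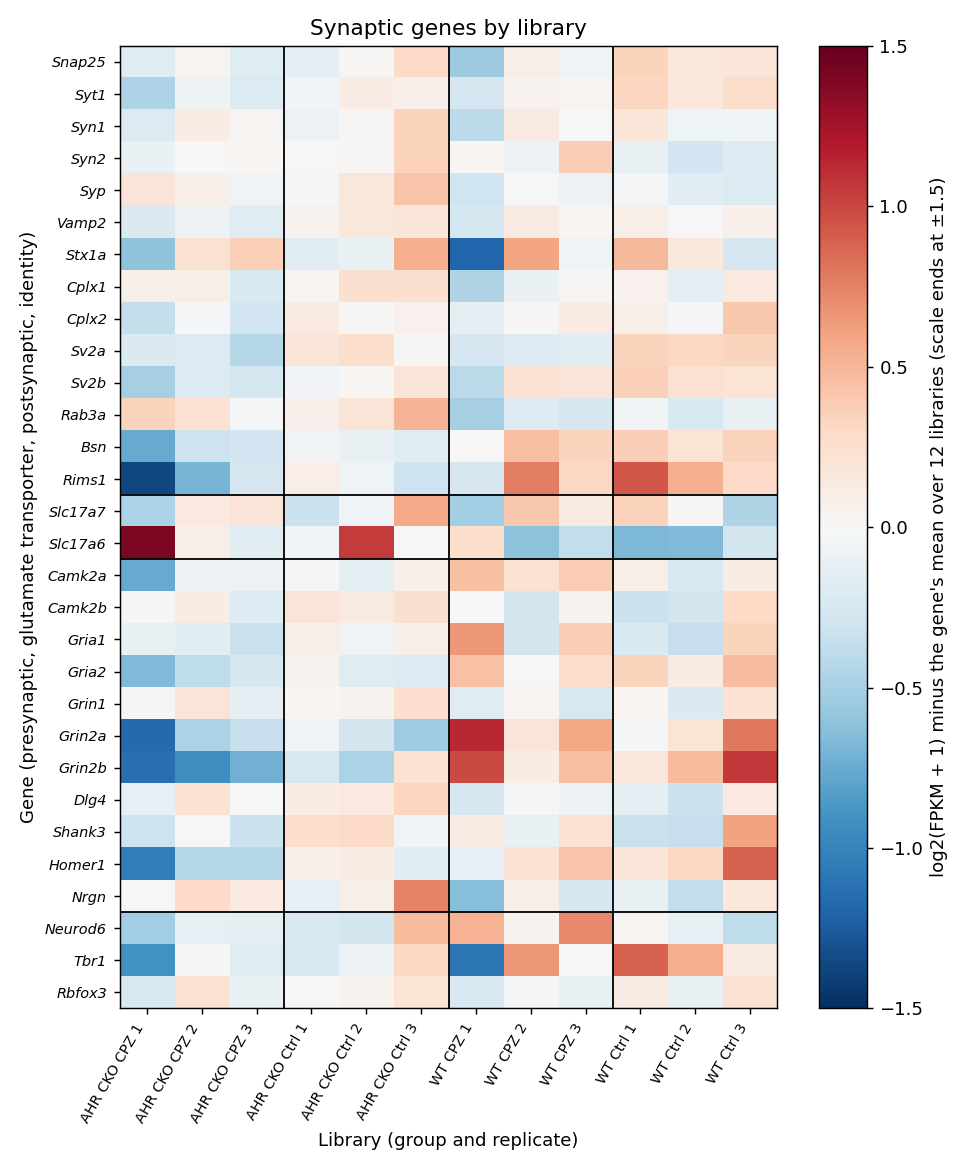
Heat map of the 30 genes (rows, by role) in the 12 libraries (columns, by group), coloured by log2(FPKM + 1) minus the gene's own mean, with the colours ending at ±1.5. Grin2b, Homer1 and Gria2 are below their mean in all 3 AHR CKO CPZ libraries, and in WT CPZ replicate 1 Stx1a and Tbr1 are low while Grin2a and Grin2b are high.

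In WT mice, the comparison of cuprizone with control asked how synaptic RNA of the tract differs in the demyelination model. Sv2a, a glycoprotein of synaptic vesicles that tunes their release and is the binding site of levetiracetam, was the only 1 of the 30 genes to pass the test, and it was lower. The other 29 did not pass. Over all genes, 9.08% were higher and 7.81% lower (16.9% in either direction), so the 1 of 30 lies below the share of all genes. An unadjusted p under 0.05 was reached by 5 of the 30 genes, against 4078 of the 13759 genes tested, which is a larger share. The fitted change was positive for 10 and negative for 20 genes, against 5992 and 7767 of all genes tested. The median was -0.10 on the log2 scale, against -0.036 over all genes.

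Sv2a (chromosome position chr3:96181151-96195521 in GRCm38) had 86.0, 89.6 and 91.1 FPKM in the WT CPZ libraries and 130.2, 127 and 129 FPKM in the WT Ctrl libraries. The groups did not overlap, and the means were 88.9 ± 2.61 FPKM in WT CPZ and 129 ± 1.44 FPKM in WT Ctrl libraries (SD, n = 3 each). The log2 difference was -0.53 (SE 0.087, 95% interval -0.72 to -0.34, adjusted p = 0.00103) on the log2(FPKM + 1) scale in limma, a ratio of means of 0.691. With any 1 of the 12 libraries left out the call held, with adjusted p up to 0.00625.

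Genes of the vesicle fusion machinery did not pass. Snap25 had 643, 997 and 904 FPKM in WT CPZ and 1187, 1056 and 1063 FPKM in WT Ctrl libraries, with a log2 difference of -0.40 (SE 0.17, 95% interval -0.76 to -0.035, adjusted p = 0.132). The groups did not overlap, but WT CPZ replicate 1 lay far below the other 2 WT CPZ libraries. Syt1, the calcium sensor of fast release, gave 226, 279.5 and 278 FPKM in WT CPZ and 337, 303 and 327 FPKM in WT Ctrl libraries, again without overlap, with a log2 difference of -0.31 (adjusted p = 0.0994). Stx1a, the syntaxin partner of Snap25, spread from 45.5 FPKM in WT CPZ replicate 1 to 159 FPKM in replicate 2 of that group, which by itself spans the 3 WT Ctrl libraries at 148, 118 and 88.6 FPKM.

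The genes typical of cortical excitatory neurons gave mixed values. Slc17a7 had 279, 529 and 437 FPKM in WT CPZ and 508, 401 and 291 FPKM in WT Ctrl libraries, so the groups overlapped fully, and the log2 difference was 0.040 (SE 0.29, 95% interval -0.60 to 0.68, adjusted p = 0.948). Neurod6, a transcription factor of cortical and hippocampal excitatory neurons, had 58.1, 41.7 and 67.1 FPKM in WT CPZ and 41.2, 36.8 and 30.6 FPKM in WT Ctrl libraries, and every WT CPZ value lay above every WT Ctrl value. Its log2 difference of 0.59 (SE 0.22, 95% interval 0.12 to 1.06, adjusted p = 0.0859) did not pass. Camk2a, too, showed no overlap, with 696, 599 and 665 FPKM in WT CPZ and 545, 435 and 551 FPKM in WT Ctrl libraries and a log2 difference of 0.36 (SE 0.17, 95% interval -0.012 to 0.74, adjusted p = 0.184). Nrgn overlapped, at 768, 1275 and 993 FPKM in WT CPZ and 1106, 928 and 1338 FPKM in WT Ctrl libraries, with a log2 difference of -0.17 (SE 0.24, 95% interval -0.68 to 0.35, adjusted p = 0.698). Groups without overlap were seen for 3 genes in the higher direction (Syn2, Camk2a and Neurod6) and 3 in the lower (Snap25, Syt1 and Sv2a), against 15.8% and 18.9% of all genes.

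In AHR CKO mice, cuprizone against control gave again 1 gene past the test, Sv2a, which was lower, and 29 that did not pass. The share over all genes was 7.22% higher and 2.98% lower (10.2% in either direction). The fitted change was negative for 29 of the 30 genes, the exception being Slc17a6, against 7214 of the 13759 genes tested. Of the 30, 10 reached an unadjusted p under 0.05, against 3317 of the 13759 genes tested. The median was -0.25 on the log2 scale, against -0.014 over all genes. Over all genes it moved with transcript length, from 0.11 under 2000 nt to -0.20 at 10000 nt or more. In these bands the synaptic genes, 2 and 4 of the 30, had medians of -0.085 and -0.35. The 18 synaptic genes of 2000 to under 5000 nt had a median of -0.18, against -0.020 over all genes of that length. For the 6 of 5000 to under 10000 nt it was -0.38, against -0.14. What part length had in the signs was not tested. In 11 genes every AHR CKO CPZ library lay below every AHR CKO Ctrl library, against 14.6% of all genes, and in 0 genes above, against 14.3%. The 11 were Syt1, Vamp2, Cplx2, Sv2a, Sv2b, Bsn, Camk2b, Gria1, Gria2, Grin2b and Homer1, so 6 were presynaptic and 5 postsynaptic.

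Sv2a had 87.6, 88.6 and 75.6 FPKM in AHR CKO CPZ and 116, 123 and 104 FPKM in AHR CKO Ctrl libraries. Means were 83.9 ± 7.26 FPKM in AHR CKO CPZ and 114 ± 9.71 FPKM in AHR CKO Ctrl libraries (SD, n = 3 each), and the log2 difference was -0.44 (SE 0.087, 95% interval -0.63 to -0.25, adjusted p = 0.00617), a ratio of 0.735. The call held with each library left out in turn, with adjusted p up to 0.0391. Its paralog Sv2b did not pass in either genotype, with log2 differences of -0.38 (adjusted p = 0.140) in AHR CKO and -0.27 (adjusted p = 0.257) in WT mice.

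The next in order of p were postsynaptic. Homer1, a scaffold protein that links metabotropic glutamate receptors to calcium stores, had 13.2, 20.8 and 20.7 FPKM in AHR CKO CPZ and 29.9, 30.6 and 24.97 FPKM in AHR CKO Ctrl libraries, with a log2 difference of -0.64 (SE 0.21, 95% interval -1.10 to -0.18, adjusted p = 0.0793). Grin2b, the NMDA receptor subunit GluN2B, had 0.378, 0.593 and 0.839 FPKM in AHR CKO CPZ and 1.57, 1.19 and 2.53 FPKM in AHR CKO Ctrl libraries, with a log2 difference of -0.76 (SE 0.27, 95% interval -1.35 to -0.18, adjusted p = 0.0975). Both groups were apart for either gene, yet neither passed. Vamp2, at 448, 493 and 456 FPKM in AHR CKO CPZ and 539.7, 578 and 589 FPKM in AHR CKO Ctrl libraries, gave -0.29 (adjusted p = 0.125), which did not pass either.

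The most abundant genes overlapped between AHR CKO CPZ and AHR CKO Ctrl libraries. Snap25 had 827, 963 and 829 FPKM in AHR CKO CPZ and 850.4, 953 and 1147 FPKM in AHR CKO Ctrl libraries, a log2 difference of -0.16 (SE 0.17, 95% interval -0.53 to 0.20, adjusted p = 0.595). Nrgn had 1199, 1464 and 1324 FPKM in AHR CKO CPZ and 1095, 1271 and 2003 FPKM in AHR CKO Ctrl libraries, where replicate 3 was the highest value of the series for this gene, and gave -0.087 (SE 0.24, 95% interval -0.60 to 0.43, adjusted p = 0.864). Slc17a7 had 287, 441 and 456 FPKM in AHR CKO CPZ and 319, 383 and 589 FPKM in AHR CKO Ctrl libraries, a log2 difference of -0.10 (SE 0.29, 95% interval -0.74 to 0.53, adjusted p = 0.867). None of the 3 intervals excludes 0, and each is too wide to show that the gene stayed level. Camk2a, at 301, 479 and 482 FPKM in AHR CKO CPZ and 506, 464 and 538 FPKM in AHR CKO Ctrl libraries, gave -0.29 (SE 0.17, 95% interval -0.66 to 0.089, adjusted p = 0.345). Neurod6, at 27.6, 36.8 and 36.3 FPKM in AHR CKO CPZ and 34.2, 32.9 and 56.0 FPKM in AHR CKO Ctrl libraries, gave -0.25 (SE 0.22, 95% interval -0.72 to 0.22, adjusted p = 0.526).

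The genes not yet named did not pass in either comparison of cuprizone with control. Syn1, whose product synapsin I tethers vesicles to the cytoskeleton, gave -0.11 (adjusted p = 0.706) with cuprizone in AHR CKO mice and -0.11 (adjusted p = 0.698) in WT mice. The complexins Cplx1 and Cplx2, which clamp and trigger fusion, gave -0.19 (adjusted p = 0.444) and -0.30 (adjusted p = 0.172) in AHR CKO mice, and -0.21 (adjusted p = 0.364) and -0.16 (adjusted p = 0.447) in WT mice. Syp gave -0.12 (adjusted p = 0.640) in AHR CKO and 0.0098 (adjusted p = 0.974) in WT mice. Tbr1, a transcription factor of deep cortical layers, averaged 23.1 ± 7.09 FPKM in AHR CKO CPZ, 29.5 ± 6.17 in AHR CKO Ctrl, 29.8 ± 16.8 in WT CPZ and 43.2 ± 11.6 in WT Ctrl libraries (SD, n = 3 each). Its AHR CKO groups overlapped, as did its WT groups, and it gave -0.37 (adjusted p = 0.588) in AHR CKO and -0.66 (adjusted p = 0.269) in WT mice. Rbfox3 gave -0.12 (adjusted p = 0.588) in AHR CKO and -0.19 (adjusted p = 0.335) in WT mice. Over the 14 presynaptic genes the log2 differences ran from -0.68 to -0.082 in AHR CKO and -0.53 to 0.31 in WT mice, and over the 11 postsynaptic genes from -0.76 to -0.087 in AHR CKO and -0.29 to 0.36 in WT mice.

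**Figure D2:**
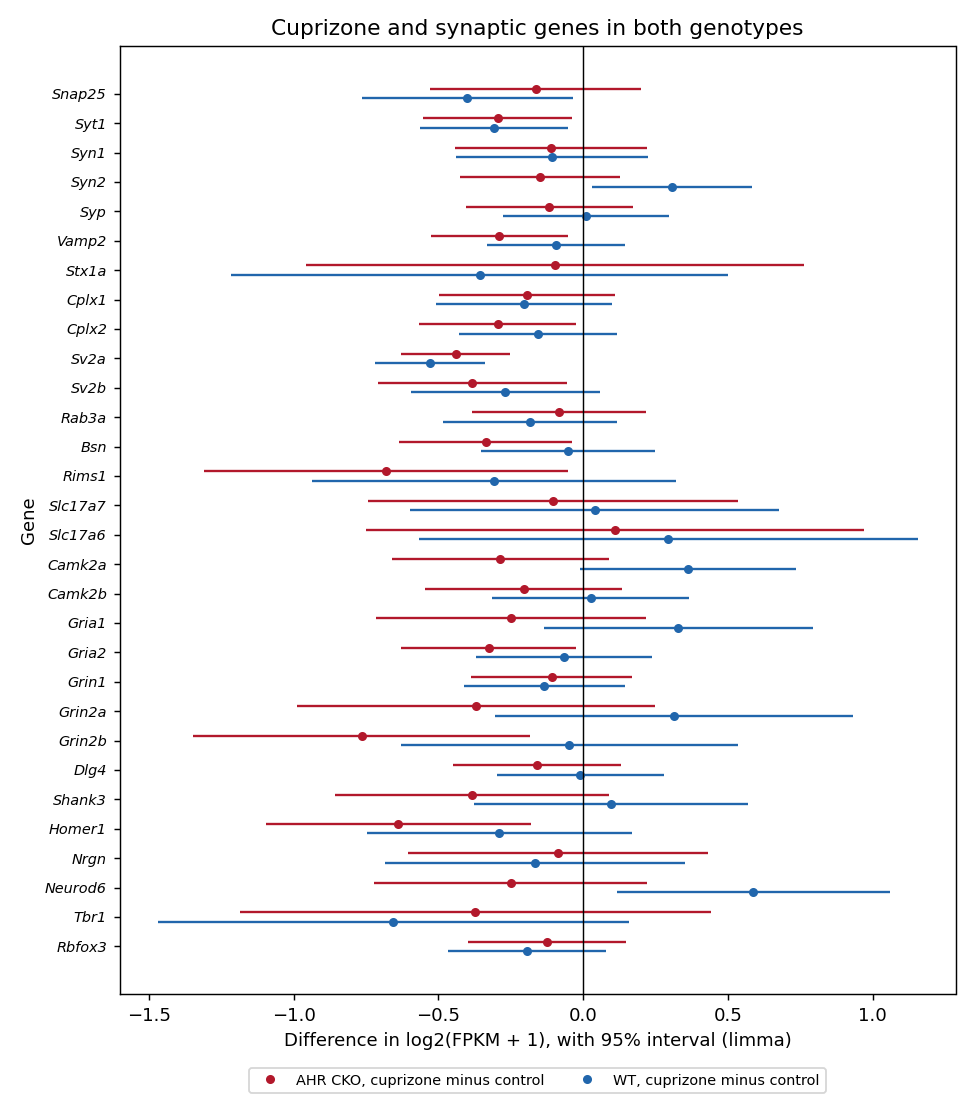
Cuprizone minus control difference in log2(FPKM + 1) for each of the 30 genes, in AHR CKO mice (red) and WT mice (blue), as the limma estimate with its 95% interval. Sv2a lies below 0 in both genotypes with narrow intervals (-0.44 in AHR CKO, -0.53 in WT). Estimates are above 0 for 10 genes in WT mice and for 1, Slc17a6, in AHR CKO mice. Neurod6, Camk2a and Syn2 are among those with opposite signs in the genotypes.

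Whether cuprizone acted differently on these genes in the genotypes was tested by the interaction, the change in AHR CKO minus the change in WT mice. Among the 30 genes 0 were higher and 0 lower in limma, against 0.0145% and 0.0218% of all genes (0.0363% in either direction). An unadjusted p under 0.05 was reached by 3 of the 30, against 1316 of the 13759 genes tested, a similar share. Those 3 were Neurod6, with -0.84 (SE 0.31, 95% interval -1.51 to -0.17, adjusted p = 0.396), Camk2a, with -0.65 (SE 0.24, 95% interval -1.18 to -0.12, adjusted p = 0.415), and Syn2, which encodes the vesicle-tethering protein synapsin II, with -0.46 (SE 0.18, 95% interval -0.85 to -0.064, adjusted p = 0.442). Syn2 had 113, 120.3 and 124 FPKM in AHR CKO CPZ, 121, 123 and 155 in AHR CKO Ctrl, 124, 114 and 157 in WT CPZ and 112, 98.6 and 106 in WT Ctrl libraries, where the WT Ctrl values were the lowest of the 4 groups. For Sv2a the difference between the genotypes was 0.089 (SE 0.12, 95% interval -0.18 to 0.36, adjusted p = 0.872), for Snap25 0.24 (SE 0.24, 95% interval -0.28 to 0.75, adjusted p = 0.816), for Nrgn 0.079 (SE 0.34, 95% interval -0.65 to 0.81, adjusted p = 0.965) and for Slc17a7 -0.14 (SE 0.41, 95% interval -1.05 to 0.76, adjusted p = 0.953). The median over the 30 genes was -0.15, against 0.027 over all genes. With sample quality weights in place of equal weights, the interaction called 5 of the 30 genes, all lower (Gria1, Homer1, Neurod6, Shank3 and Syn2), but also 18.6% of all genes.

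Between AHR CKO and WT mice that both received cuprizone, 9 of the synaptic genes differed. Of the 30 genes, 1 was higher in AHR CKO mice (Rab3a) and 8 were lower (Bsn, Rims1, Camk2a, Gria2, Grin2a, Grin2b, Homer1 and Neurod6). That is 30% of the genes, against 20% of all genes, which were 9.14% higher and 10.8% lower. By role, 5 of the 11 postsynaptic genes were lower, 1 of the 14 presynaptic genes was higher and 2 lower, 0 of the 2 transporters passed and 1 of the 3 identity genes was lower. The median change was -0.13, against 0.0017 over all genes. In 7 of the 8 lower genes the groups did not overlap, the exception being Rims1, and the same held for Rab3a, against 20% of all genes in the lower and 18.9% in the higher direction. The comparison shares its WT CPZ libraries with that of cuprizone in WT mice, and its AHR CKO CPZ libraries with that of cuprizone in AHR CKO mice.

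At the presynaptic active zone, Bsn (chr9:108096022-108190384) had 12.2, 16.9 and 17.2 FPKM in AHR CKO CPZ and 21.2, 29.3 and 27.0 FPKM in WT CPZ libraries, a log2 difference of -0.71 (SE 0.14, 95% interval -1.01 to -0.41, adjusted p = 0.00871) and a ratio of means of 0.597. All AHR CKO CPZ values lay below all WT CPZ values. Rims1 (chr1:22286251-22805994), whose product ties vesicles to calcium channels, had 17.1, 27.9 and 38.3 FPKM in AHR CKO CPZ and 38.2, 78.2 and 56.9 FPKM in WT CPZ libraries. The highest AHR CKO CPZ value just passed the lowest WT CPZ value, and the log2 difference was -1.04 (SE 0.29, 95% interval -1.67 to -0.41, adjusted p = 0.0275). Rab3a (chr8:70754679-70758677) went the other way, with 535, 490.4 and 413 FPKM in AHR CKO CPZ and 297, 369 and 352 FPKM in WT CPZ libraries. Its log2 difference was 0.50 (SE 0.14, 95% interval 0.20 to 0.80, adjusted p = 0.0279), a ratio of 1.41.

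On the postsynaptic side, both NMDA receptor subunit genes of low level were lower. Grin2b (chr6:135713233-136173511) had 0.378, 0.593 and 0.839 FPKM in AHR CKO CPZ and 5.02, 2.28 and 3.15 FPKM in WT CPZ libraries, a log2 difference of -1.45 (SE 0.27, 95% interval -2.03 to -0.87, adjusted p = 0.00749) and a ratio of 0.173. Grin2a (chr16:9567898-9995560), the GluN2A subunit, had 0.303, 1.09 and 1.29 FPKM in AHR CKO CPZ and 5.39, 2.33 and 3.38 FPKM in WT CPZ libraries, a log2 difference of -1.30 (SE 0.28, 95% interval -1.92 to -0.68, adjusted p = 0.0126) and a ratio of 0.243. At such low FPKM the added 1 makes the log2 change smaller than the ratio. Grin1, the subunit that every NMDA receptor needs, gave 0.13 (adjusted p = 0.490) and did not pass. Gria2 (chr3:80681450-80802835), the AMPA receptor subunit that sets calcium permeability, had 55.8, 68.4 and 74.3 FPKM in AHR CKO CPZ and 121, 89.2 and 107 FPKM in WT CPZ libraries, without overlap, and gave -0.67 (SE 0.14, 95% interval -0.97 to -0.37, adjusted p = 0.0106). Its partner Gria1 did not pass, at -0.46 (adjusted p = 0.142).

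Homer1 (chr13:93299635-93405129) had 13.2, 20.8 and 20.7 FPKM in AHR CKO CPZ and 25.9, 32.9 and 38.2 FPKM in WT CPZ libraries, a log2 difference of -0.80 (SE 0.21, 95% interval -1.26 to -0.35, adjusted p = 0.0224). Camk2a had 301, 479 and 482 FPKM in AHR CKO CPZ and 696, 599 and 665 FPKM in WT CPZ libraries, a log2 difference of -0.66 (SE 0.17, 95% interval -1.04 to -0.29, adjusted p = 0.0217), whereas the beta subunit gene Camk2b stood at 0.054 (adjusted p = 0.826). Neurod6 (chr6:55677822-55681263) had 27.6, 36.8 and 36.3 FPKM in AHR CKO CPZ and 58.1, 41.7 and 67.1 FPKM in WT CPZ libraries, a log2 difference of -0.70 (SE 0.22, 95% interval -1.17 to -0.23, adjusted p = 0.0415). For Camk2a and Neurod6 the WT CPZ libraries were the highest of the 4 groups on average, at 654 ± 49.6 and 55.6 ± 12.9 FPKM (SD, n = 3). The most abundant genes did not pass: Snap25 gave 0.063 (SE 0.17, 95% interval -0.30 to 0.43, adjusted p = 0.807), Nrgn 0.42 (SE 0.24, 95% interval -0.10 to 0.94, adjusted p = 0.218) and Slc17a7 -0.053 (SE 0.29, 95% interval -0.69 to 0.59, adjusted p = 0.914). Dlg4, the gene of the scaffold PSD-95, and Shank3, another scaffold of the postsynaptic density, gave 0.15 (adjusted p = 0.430) for Dlg4 and -0.28 (adjusted p = 0.360) for Shank3.

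Single libraries bore on this count. Without AHR CKO CPZ replicate 1 the test called 3 of the 30 genes (Bsn, Gria2 and Grin2b), and without WT CPZ replicate 3 it called 4 (those 3 and Grin2a), while all genes called were 5.65% and 8.73%, against 20% with all libraries. Bsn, Gria2 and Grin2b were lower with each of the 12 libraries left out, with adjusted p up to 0.0337, 0.0464 and 0.0345. Without AHR CKO CPZ replicate 1 the adjusted p was 0.0553 for Grin2a, 0.0965 for Homer1, 0.0655 for Camk2a, 0.116 for Rims1, 0.160 for Neurod6 and 0.110 for Rab3a. Without WT CPZ replicate 3, Grin2a stayed past the threshold and the other 5 of these did not. Calls were also lost without AHR CKO CPZ replicate 2 (Neurod6, Rims1 and Rab3a), WT CPZ replicate 1 (Camk2a, Neurod6 and Rab3a), WT CPZ replicate 2 (Rims1) and WT Ctrl replicate 2 (Neurod6). Rab3a, the single higher gene, was not called under quantile normalization, with a replicate block, with only the groups compared or after the length and GC correction either. Without WT CPZ replicate 2, which differs from the other WT libraries in its genes at 0, 9 genes passed, with Gria1 called lower and Rims1 not called. In the 8 genes without overlap every WT CPZ library, this one included, lies outside the 3 AHR CKO CPZ values by definition.

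**Figure D3:**
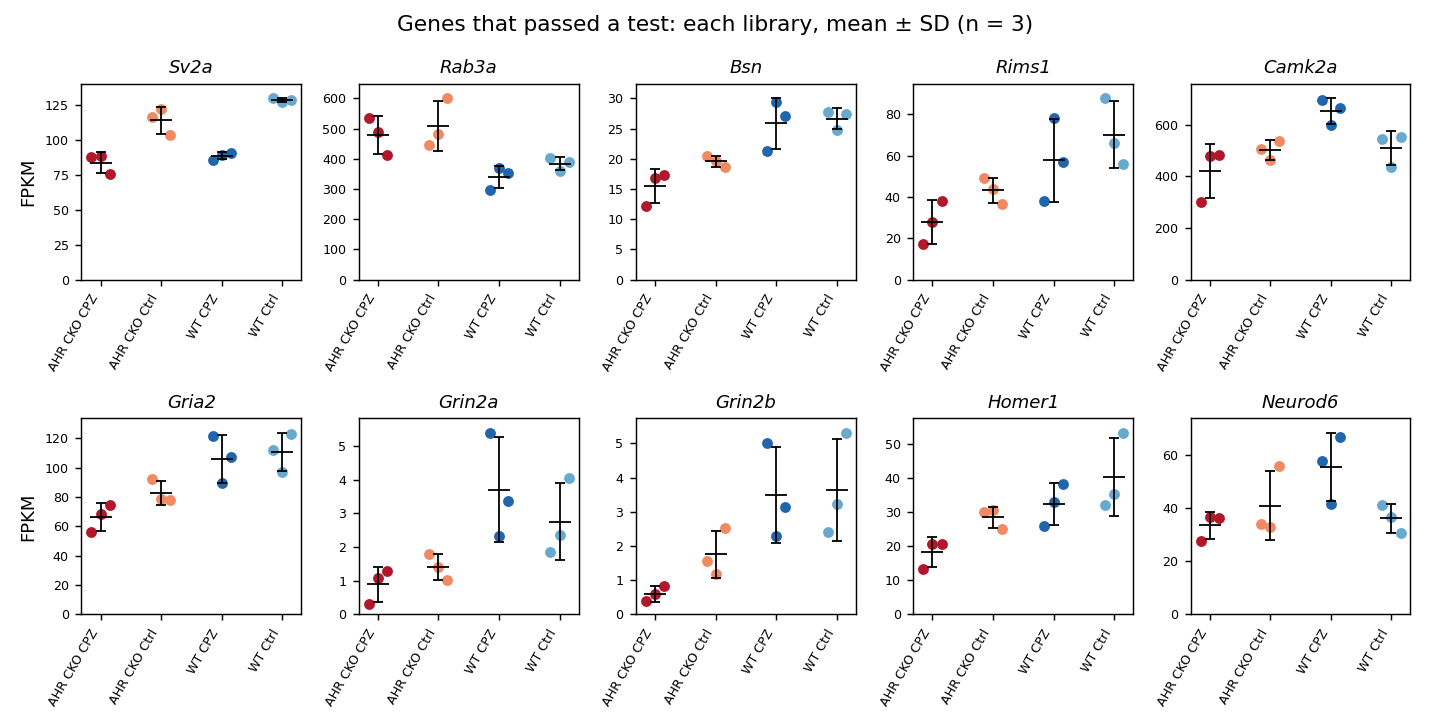
FPKM of the 10 genes that passed at least 1 test, each library a point, with mean ± SD (n = 3), for AHR CKO CPZ, AHR CKO Ctrl, WT CPZ and WT Ctrl. Sv2a is lower in both cuprizone groups, every AHR CKO point of Rab3a lies above every WT point, and for Bsn, Gria2, Grin2b and Homer1 the AHR CKO CPZ libraries are the lowest of the 4 groups.

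The genes that differed between the genotypes under cuprizone also differed in transcript length. The longest coding transcript in GENCODE M21 measured 2150 to 24060 nt for the 8 lower genes (median 8408.5), 1556 nt for Rab3a and 1453 to 7365 nt for the 21 that did not pass (median 3977). All 4 synaptic genes of 10000 nt or more, which are Grin2b (24060 nt), Bsn (15938 nt), Grin2a (14634 nt) and Gria2 (10371 nt), were lower. The same trend ran through all genes tested. The median log2 difference was 0.27 for the 3197 genes under 2000 nt, of which 24.1% were higher and 1.78% lower. It was -0.25 for the 2555 genes of 5000 to under 10000 nt and -0.40 for the 323 genes of 10000 nt or more, of which 0.619% were higher and 53.9% lower.

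After a smooth trend of length and GC content was removed from each library, 3 of the 30 genes remained lower and 0 were higher, against 6.1% of all genes called. Bsn then gave -0.45 (adjusted p = 0.0386), Grin2b -0.97 (adjusted p = 0.0433) and Camk2a -0.57 (adjusted p = 0.0490). The other 6 did not pass, and their values moved unequally. Neurod6 gave -0.71 (adjusted p = 0.0666), against -0.70 without the correction, and Rims1 -0.76 (adjusted p = 0.124), against -1.04. Grin2a gave -0.83 (adjusted p = 0.0535), against -1.30, and Homer1 -0.46 (adjusted p = 0.154), against -0.80. Gria2 gave -0.17 (adjusted p = 0.259), against -0.67, and Rab3a 0.23 (adjusted p = 0.232), against 0.50. The length trend could be read in single libraries, as the median deviation from the mean of all 12 libraries in genes of 10000 nt or more minus that in genes under 2000 nt. This log2 value was -0.71 to -0.24 in AHR CKO CPZ, -0.35 to 0.045 in AHR CKO Ctrl, 0.16 to 0.35 in WT CPZ and 0.32 to 0.42 in WT Ctrl libraries, lowest in AHR CKO CPZ replicate 1. WT CPZ replicate 2, the WT library with genes at 0, had 0.16. It lay below the other WT libraries (0.19 to 0.42) and above all AHR CKO libraries (up to 0.045). What made FPKM depend on length between the genotypes was not tested, and the labels used here name no preparation or sequencing batch.

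**Figure D4:**
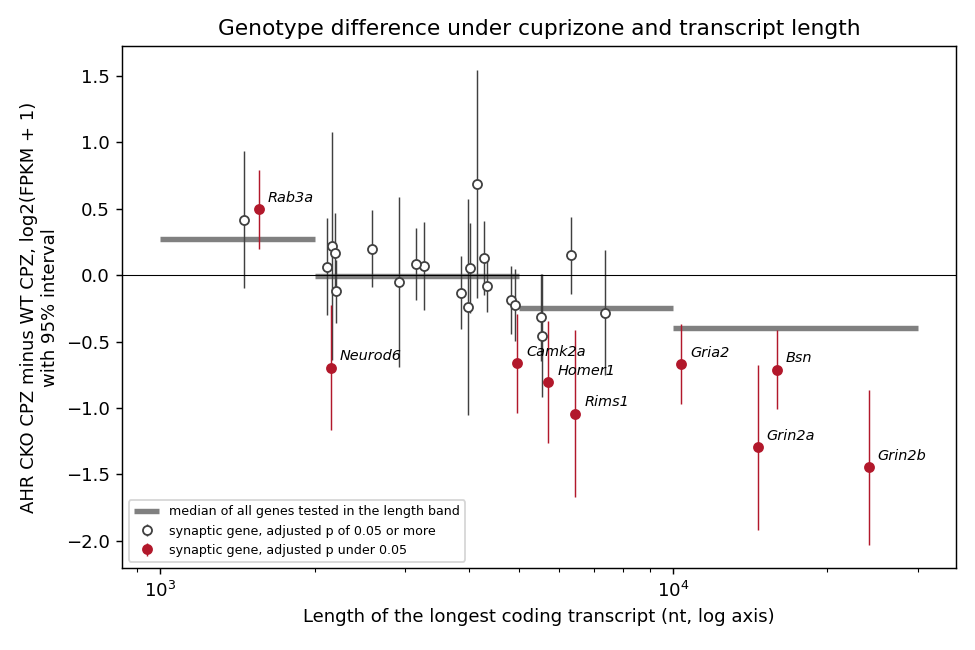
Difference between AHR CKO CPZ and WT CPZ in log2(FPKM + 1) with its 95% interval (y axis) against the length of the longest coding transcript on a log axis (x axis), for the 30 synaptic genes, filled red where the adjusted p was under 0.05. Grey bars give the median of all genes tested in 4 length bands, from 0.27 for the shortest to -0.40 for the longest, and the 4 longest synaptic genes lie below them.

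Without cuprizone, AHR CKO and WT mice showed 0 higher and 0 lower of the 30 genes in limma, against 1.42% and 4.76% of all genes (6.19% in either direction). Of the 30, 9 had an unadjusted p under 0.05, against 3798 of the 13759 genes tested, a similar share. The smallest p-values belonged to Bsn, Gria2 and Rab3a, 3 genes that passed between the genotypes under cuprizone, in libraries not shared with that comparison. Bsn had 20.5, 19.6 and 18.6 FPKM in AHR CKO Ctrl and 27.8, 24.7 and 27.4 FPKM in WT Ctrl libraries, a log2 difference of -0.43 (SE 0.14, 95% interval -0.72 to -0.13, adjusted p = 0.0793). Gria2 had 92.2, 78.5 and 78.0 FPKM in AHR CKO Ctrl and 112, 97.0 and 123 FPKM in WT Ctrl libraries, a log2 difference of -0.41 (SE 0.14, 95% interval -0.71 to -0.11, adjusted p = 0.0896). Rab3a had 444, 482 and 601 FPKM in AHR CKO Ctrl and 404, 359 and 389 FPKM in WT Ctrl libraries, a log2 difference of 0.40 (SE 0.14, 95% interval 0.10 to 0.70, adjusted p = 0.0959). The groups did not overlap for any of these 3 genes, and the signs were those seen under cuprizone. After the length and GC correction Gria2 turned to 0.053 (adjusted p = 0.806), while Bsn gave -0.24 (adjusted p = 0.313) and Rab3a 0.22 (adjusted p = 0.359), and the length trend is common to both comparisons.

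Of the other genes called under cuprizone, Grin2b had 1.57, 1.19 and 2.53 FPKM in AHR CKO Ctrl and 2.40, 3.22 and 5.31 FPKM in WT Ctrl libraries (-0.73, adjusted p = 0.107), and Grin2a 1.78, 1.42 and 1.01 FPKM in AHR CKO Ctrl and 1.86, 2.36 and 4.04 FPKM in WT Ctrl libraries (-0.61, adjusted p = 0.184). Rims1 had 49.0, 43.8 and 36.8 FPKM in AHR CKO Ctrl and 87.9, 66.4 and 56.0 FPKM in WT Ctrl libraries (-0.67, adjusted p = 0.156), and Homer1 29.9, 30.6 and 24.97 FPKM in AHR CKO Ctrl and 32.1, 35.4 and 53.2 FPKM in WT Ctrl libraries (-0.46, adjusted p = 0.182). None of these passed, though only Grin2b overlapped between the groups. For Camk2a and Neurod6 the estimates were near 0 or positive, at -0.016 (SE 0.17, 95% interval -0.39 to 0.36, adjusted p = 0.962) and 0.14 (SE 0.22, 95% interval -0.33 to 0.61, adjusted p = 0.705).

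The remaining genes of full record gave -0.17 (SE 0.17, 95% interval -0.54 to 0.19, adjusted p = 0.537) for Snap25, 0.34 (SE 0.24, 95% interval -0.18 to 0.86, adjusted p = 0.376) for Nrgn and 0.092 (SE 0.29, 95% interval -0.55 to 0.73, adjusted p = 0.869) for Slc17a7. Slc17a6 had 6.22, 14.4 and 6.42 FPKM in AHR CKO Ctrl and 3.66, 3.70 and 5.16 FPKM in WT Ctrl libraries, without overlap, and gave 0.87 (adjusted p = 0.176). In AHR CKO CPZ it reached 18.8 FPKM in replicate 1, against 6.88 and 5.66 FPKM in the other 2 libraries. Groups without overlap were seen for 4 genes in the higher direction (Syn2, Syp, Rab3a and Slc17a6) and 8 in the lower (Syt1, Sv2a, Sv2b, Bsn, Rims1, Gria2, Grin2a and Homer1), against 13.5% and 21.9% of all genes. The length trend was present here too, with a median change of 0.17 under 2000 nt and -0.35 at 10000 nt or more. Without WT Ctrl replicate 3, 2 genes passed (Camk2b and Shank3, both higher), against 6.5% of all genes, and without AHR CKO CPZ replicate 1, 1 (Bsn, lower), against 10.4%.

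The wider synapse was read from lists of 43 other presynaptic and 50 other postsynaptic genes. With cuprizone in WT mice 0 presynaptic genes were higher and 1 lower (Nrxn3, the adhesion molecule neurexin 3, -0.35, adjusted p = 0.0375). Of the postsynaptic genes 3 were higher and 5 lower. The shares called were 2.33% of the presynaptic and 16% of the postsynaptic list, against 16.9% of all genes. Grm3, a metabotropic glutamate receptor also made by astrocytes, gave -0.91 (adjusted p = 0.00155), Gria4, an AMPA receptor subunit also made by oligodendrocyte precursors, -0.56 (adjusted p = 0.00115), and Arc, an immediate early gene of active synapses, 1.33 (adjusted p = 0.00805). With cuprizone in AHR CKO mice 0 presynaptic genes were higher and 1 lower, and 0 postsynaptic genes higher and 1 lower (Grm3, -0.72, adjusted p = 0.0120). Over all genes 10.2% were called there. The medians with cuprizone in AHR CKO mice were -0.20 and -0.29 for the presynaptic and postsynaptic list, against -0.014 over all genes.

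Between AHR CKO and WT mice under cuprizone, 1 of the 43 presynaptic genes was higher and 8 lower, and 0 of the 50 postsynaptic genes were higher and 12 lower, against 9.14% and 10.8% of all genes. The lower presynaptic genes included Erc1 (-0.76, adjusted p = 0.00377) and Pclo (-0.55, adjusted p = 0.00994), both active zone scaffolds like Bsn. The lower postsynaptic genes were led by the scaffolds Shank2 (-1.02, adjusted p = 0.00460) and Homer2 (-0.95, adjusted p = 0.00744) and by the adhesion molecule Nlgn3 (-0.66, adjusted p = 0.00951). After the length and GC correction 2 presynaptic and 4 postsynaptic genes were called, all lower, against 6.1% of all genes called. Erc1 then gave -0.44 (adjusted p = 0.0132) and Pclo -0.072 (adjusted p = 0.698). Without cuprizone 0 presynaptic genes were higher and 2 lower (Erc1, -0.45, adjusted p = 0.0409, and Pclo, -0.44, adjusted p = 0.0447). Of the postsynaptic genes 3 were higher and 2 lower, namely Arc at 1.57 (adjusted p = 0.0272), Lrrtm2, an adhesion protein of excitatory synapses, at -0.51 (adjusted p = 0.0373) and Grm3 at -0.66 (adjusted p = 0.0380) among the named. The shares called were 4.65% of the presynaptic and 10% of the postsynaptic list, against 6.19% of all genes.

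Arc stood apart by its WT Ctrl libraries. It had 77.5, 134 and 138 FPKM in AHR CKO CPZ, 146, 119.6 and 179 in AHR CKO Ctrl, 82.9, 149 and 154 in WT CPZ and 62.6, 54.8 and 33.6 in WT Ctrl libraries. All 3 WT Ctrl values lay below all values of the other 3 groups, so both comparisons that passed for Arc rest on the same low libraries. The call between the genotypes without cuprizone was lost without AHR CKO Ctrl replicate 2 or 3 or WT Ctrl replicate 1 or 2, with adjusted p up to 0.117.

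Markers of other neuron types mostly had negative log2 differences with cuprizone, except the cortical and hippocampal markers in WT mice, and few passed. The sign was negative in 23 of 29 cortical and hippocampal markers in AHR CKO mice and 13 of 29 in WT mice, in 15 of 17 interneuron markers in AHR CKO mice and 14 of 17 in WT mice, and in all 13 striatal markers in both genotypes. Of 29 further markers of cortical and hippocampal excitatory neurons, 2 were higher and 3 lower with cuprizone in WT mice, and 0 passed in AHR CKO mice. That is 17.2% in WT mice, against 16.9% of all genes in WT and 10.2% in AHR CKO mice. In WT mice Etv1, a marker of deep cortical layers, gave -0.81 (adjusted p = 0.000839), Foxp2, another, -0.80 (adjusted p = 0.0235) and Rasgrf2, of the upper layers, 0.45 (adjusted p = 0.0144). Between the genotypes under cuprizone 1 was higher (Pcp4, a calmodulin-binding peptide shared with striatal cells, 1.09, adjusted p = 0.0203) and 3 lower, with Tle4, of the deep layers, at -0.41 (adjusted p = 0.0238) and Prox1, of the dentate gyrus, at -0.93 (adjusted p = 0.0311). Without cuprizone 1 was higher (Crym, 1.17, adjusted p = 0.0395) and 2 lower (Etv1, -0.52, adjusted p = 0.0421, and Tle4, -0.41, adjusted p = 0.0488). The shares called between the genotypes were 13.8% under cuprizone and 10.3% without it, against 20% and 6.19% of all genes.

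Of 17 inhibitory interneuron markers, 0 passed with cuprizone in either genotype, where Sst, the most abundant, averaged 772 ± 102 FPKM in AHR CKO CPZ, 829 ± 152 in AHR CKO Ctrl, 641 ± 249 in WT CPZ and 670.4 ± 88.8 in WT Ctrl libraries (SD, n = 3). With cuprizone 10.2% (AHR CKO) and 16.9% (WT) of all genes passed. Pvalb was the single interneuron marker to differ between AHR CKO and WT mice, higher both under cuprizone (0.80, adjusted p = 0.00749) and without it (0.59, adjusted p = 0.0421). That is 5.88% of the list each time, against 20% of all genes under cuprizone and 6.19% without it. None of the 13 striatal markers tested passed in any of the comparisons, but all had 1 sign in 4 of the 5. All 13 had negative values with cuprizone in AHR CKO (median log2 difference -0.41) and in WT mice (-0.91), and all 13 had positive values between AHR CKO and WT mice under cuprizone (0.74) and in the interaction (0.47). Of the 13759 genes tested, 7214 and 7767 were negative in the first 2 of these, and 6907 and 7614 positive in the last 2. The last 2 use libraries of the first 2, so the signs are not independent. Without cuprizone 10 of 13 were positive (median 0.33). Of them, Ppp1r1b, which encodes DARPP-32, averaged 657 ± 221 FPKM in AHR CKO CPZ, 787 ± 155 in AHR CKO Ctrl, 278 ± 87.4 in WT CPZ and 662 ± 496 in WT Ctrl libraries.

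Among 15 genes of the axonal cytoskeleton, 3 were lower with cuprizone in AHR CKO mice and 3 in WT mice, and 0 were higher in either. The same 3 were named in both: Tubb4a, a tubulin also abundant in oligodendrocytes (-0.70, adjusted p = 0.0127 in AHR CKO, -1.10, adjusted p = 0.000355 in WT), Mapt, the microtubule protein tau (-0.46, adjusted p = 0.0127 in AHR CKO, -0.66, adjusted p = 0.000707 in WT), and Kif5c, a kinesin of axonal transport (-0.49, adjusted p = 0.0385 in AHR CKO, -0.46, adjusted p = 0.0337 in WT). Under cuprizone 3 differed upward between AHR CKO and WT mice, with Gap43, a growth cone protein, at 0.67 (adjusted p = 0.0114) and Tubb3 at 0.64 (adjusted p = 0.0117), and 3 downward, with Map1b at -0.40 (adjusted p = 0.00808), which gave 0.024 (adjusted p = 0.881) after the length and GC correction. Without cuprizone 0 were higher and 2 lower (Mapt, -0.40, adjusted p = 0.0457, and Kif5c, -0.50, adjusted p = 0.0476). With cuprizone 20% of the axonal list passed in each genotype, against 10.2% (AHR CKO) and 16.9% (WT) of all genes. Between the genotypes 40% passed under cuprizone and 13.3% without it, against 20% and 6.19% of all genes. The interaction called 0 genes of all 6 neuronal lists in limma. Olfm1 was the most abundant of the postsynaptic list, at 375 ± 86.2 FPKM in WT Ctrl libraries, and Kif5a of the axonal list, at 1426 ± 265 FPKM in WT Ctrl libraries (SD, n = 3).

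These named calls of the wider lists were of unequal firmness. With each of the 12 libraries left out in turn, 6 of 10 held every time for cuprizone in WT mice, 1 of 5 (Tubb4a) for cuprizone in AHR CKO mice, 10 of 13 between the genotypes under cuprizone and 0 of 11 between them without it. After the length and GC correction 7, 4, 5 and 0 of them stayed past the test, in that order.

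Markers of mature oligodendrocytes, microglia and astrocytes were apart between cuprizone and control libraries. Summed FPKM of the 30 genes ranged over 6266 to 7357 in AHR CKO CPZ, 6774 to 8963 in AHR CKO Ctrl, 5699 to 7335 in WT CPZ and 6511 to 7448 in WT Ctrl libraries, and the AHR CKO groups overlapped, as did the WT groups. The mean log2(FPKM + 1), which weights the 30 genes equally, was 6.34 to 6.62 in AHR CKO CPZ and 6.68 to 6.87 in AHR CKO Ctrl libraries, without overlap, and 6.58 to 6.80 in WT CPZ and 6.67 to 6.88 in WT Ctrl libraries, with overlap. The sum of 13 mature oligodendrocyte markers, led by Mbp, was 4263 to 5309 in AHR CKO CPZ, 10013 to 10723 in AHR CKO Ctrl, 3211 to 3888 in WT CPZ and 10418 to 18924 in WT Ctrl libraries. With cuprizone 12 of the 13 were lower in AHR CKO mice and 13 of 13 in WT mice. Over all genes 7.22% were higher and 2.98% lower with cuprizone in AHR CKO mice, and 9.08% and 7.81% in WT mice. The sum of 10 microglia markers was 755 to 1203 in AHR CKO CPZ, 272 to 291 in AHR CKO Ctrl, 1154 to 1687 in WT CPZ and 307 to 343 in WT Ctrl libraries, with 6 of 10 higher with cuprizone in AHR CKO mice and 7 of 10 in WT mice, 0 lower in both. Of 10 astrocyte markers 4 were higher and 0 lower with cuprizone in AHR CKO mice, and 5 higher and 1 lower in WT mice, and their sum was 2451 to 3114 in AHR CKO CPZ, 1694 to 1711 in AHR CKO Ctrl, 2769 to 3367 in WT CPZ and 1674 to 1853 in WT Ctrl libraries. The sum of 8 oligodendrocyte precursor markers overlapped in WT mice, at 251 to 272 in AHR CKO CPZ, 282 to 298 in AHR CKO Ctrl, 233 to 259 in WT CPZ and 243 to 371 in WT Ctrl libraries. FPKM is a share of the library, so these shifts enter the values of every other gene. Under median-of-ratios scaling and rescaling to a common total, Sv2a passed in both genotypes as well. The median-of-ratios factors were only 0.988 to 1.016, and neither setting removes a change in cell content.

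Other neural tissue varied between libraries of 1 group. The sum of the striatal markers was 1016 to 1963 in AHR CKO CPZ, 1539.5 to 2470.2 in AHR CKO Ctrl, 586 to 1130.2 in WT CPZ and 821 to 3381 in WT Ctrl libraries, with WT Ctrl replicate 3 the highest. The interneuron sum was 2046 to 2422 in AHR CKO CPZ, 2159.9 to 2808 in AHR CKO Ctrl, 1416 to 2411 in WT CPZ and 1825 to 2151 in WT Ctrl libraries. The choroid plexus sum was 1012 to 3748 in AHR CKO CPZ, 417 to 3594 in AHR CKO Ctrl, 57.6 to 2994 in WT CPZ and 43.7 to 156 in WT Ctrl libraries, and WT CPZ replicate 2 held the 57.6. Between AHR CKO and WT mice under cuprizone 3 mature oligodendrocyte markers were higher and 0 lower, 0 microglia markers higher and 3 lower, 1 astrocyte marker higher and 2 lower, 0 of 8 oligodendrocyte precursor markers higher and 1 lower, 0 of 8 endothelial markers higher and 1 lower, 0 of 7 choroid plexus markers passed, though all 7 values were positive (median 0.56), and 1 of 4 ependymal markers was higher. Over all genes 9.14% were higher and 10.8% lower in that comparison. Without cuprizone 2 mature oligodendrocyte markers and 1 astrocyte marker were lower, against 4.76% of all genes, and no marker of the other 5 lists passed. All 7 choroid plexus markers then had positive log2 differences (median 1.90). Of the 7, 5 had an unadjusted p under 0.05, against 3798 of the 13759 genes tested. The choroid plexus sums did not overlap between AHR CKO Ctrl and WT Ctrl libraries. With cuprizone in WT mice 1 precursor marker and 1 ependymal marker were lower, and 0 endothelial or choroid plexus markers passed, though all 7 choroid plexus values were positive (0.82 to 2.76, median 1.07). In AHR CKO mice no marker of these 4 lists passed with cuprizone, and the choroid plexus median was 0.033. What part the neighbouring tissue in each library had in the synaptic values was not tested.

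**Figure D5:**
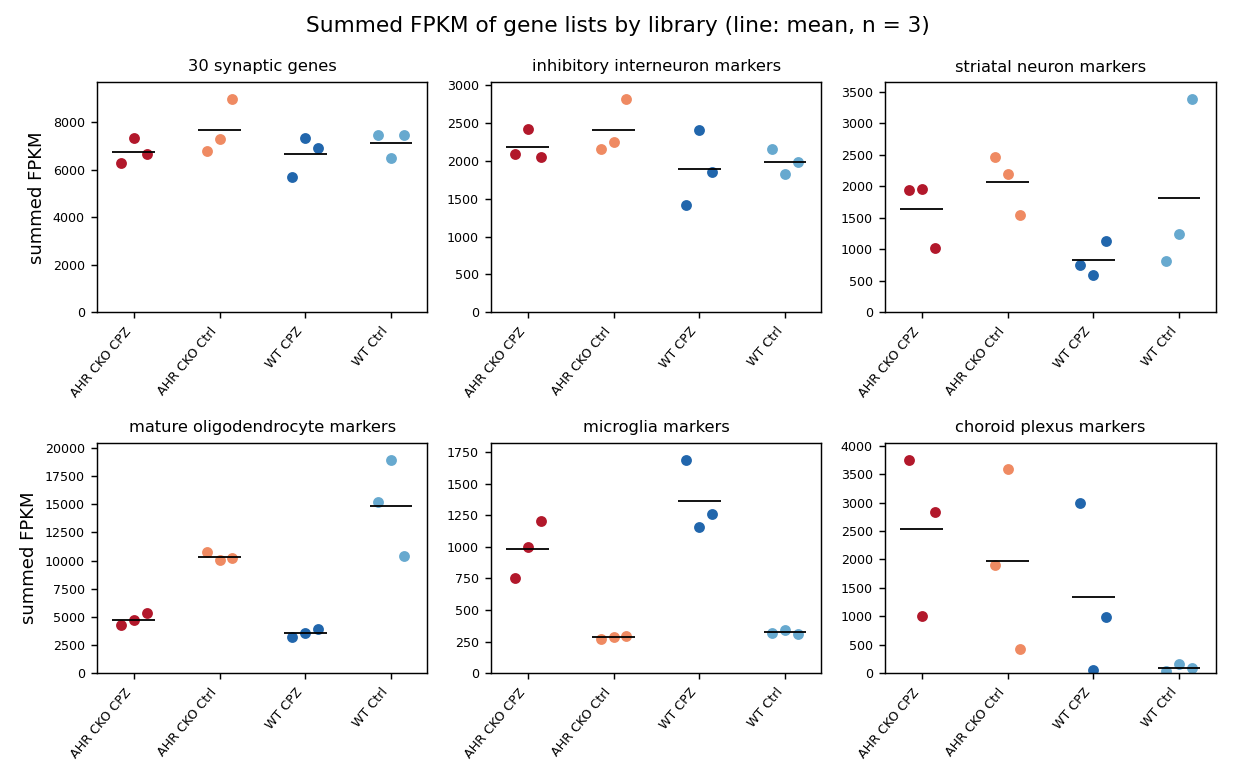
Summed FPKM (y axis, from 0) of the 30 synaptic genes and of 5 marker lists in each library, with a line at the group mean (n = 3), for AHR CKO CPZ, AHR CKO Ctrl, WT CPZ and WT Ctrl. The synaptic sum overlaps in all groups, the oligodendrocyte sum is lower and the microglia sum higher in both cuprizone groups, and the choroid plexus sum differs widely between libraries of 1 group.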

How the data were processed

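Total RNA of the tissue was extracted with a Qiagen RNeasy kit, and a SMARTER mRNA-Seq kit gave the libraries, per the labels' protocols. The 12 libraries were grouped by the labelled genotype and treatment. The authors deposited 1 table of FPKM values, per the file headers. The genome build was mm10 (GRCm38), per the submitters' processing notes, and the sources used here do not name the aligner, quantifier or annotation. FPKM holds no counts, so no count test was run. Depth was read from the steps between the lowest values, in a range that itself limits the answer to 8330000 to 20000000 fragments, and depth limits the genes of low FPKM most.

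Genes reaching 1 FPKM in at least 3 libraries were kept (13759), values were taken as log2(FPKM + 1), which understates changes of low genes, and limma 3.58.1 in R 4.3.3 was fitted to all 12 libraries with 4 group means and a trended prior. P-values are two-sided and adjusted by Benjamini-Hochberg over all genes within each of 5 comparisons, with 0.05 as the threshold. Ratios are of mean FPKM. A test of 1 gene alone by exact permutation of 3 against 3 libraries could not go below p = 0.1. Transcript lengths and positions came from GENCODE M21 (GRCm38) and covered 95.4% of the genes tested. The members, the 13 other gene lists and the tests were chosen with earlier results of these data known.

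Fully recorded were Slc17a7, Snap25, Camk2a, Nrgn and Neurod6, each gene past a test, and the 3 of smallest p where 0 passed. From each other neuronal list the 3 of smallest adjusted p were named, or the most abundant, and some of these are not reported here. The steps were tested on simulated data. Tried as alternatives were 0.1 as the pseudocount, no filter or a mean of 5 FPKM or more, TPM, quantile normalization, scaling by median of ratios, sample quality weights, no trend, a replicate block, only the groups compared, a length and GC correction (splines of 5 degrees of freedom), and each library left out. Within groups, log2 values correlated at 0.972 to 0.993 across genes. In 25 rows the symbol had become a date, and these are unnamed.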

Additional observations from a re-analysis of the deposited data

How the results depend on the processing

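The count of synaptic genes called depended on the settings. The share of all genes called under the same setting stands in parentheses after each count. For cuprizone in WT mice (1 gene) it was 4 with quantile normalization (17.9%), 9 with sample quality weights (37.1%) and 1 to 3 with single libraries left out, with 3 without WT CPZ replicate 2 (17.2%) and 2 without AHR CKO CPZ replicate 1 (17.7%) or AHR CKO Ctrl replicate 3 (17%). For cuprizone in AHR CKO mice (1 gene) it was 2 with a pseudocount of 0.1 (10.2%), 2 with TPM (9.5%), 3 with quantile normalization (11.1%), 8 with sample quality weights (35.2%), 2 with the length and GC correction (10.9%) and 1 to 2 with libraries left out, with 2 without WT CPZ replicate 1 (10.4%) or WT Ctrl replicate 3 (11.3%). For AHR CKO against WT mice under cuprizone (9 genes) it was 17 with sample quality weights (58.4%), 4 with only the groups compared (7.78%), 3 with the length and GC correction (6.1%) and 3 to 9 with libraries left out (5.65% to 24%). For the genotypes without cuprizone (0 genes) it was 10 with sample quality weights (32.5%) and 0 to 2 with libraries left out (0.0291% to 10.4%). For the interaction (0 genes) it was 5 with sample quality weights (18.6%). Sv2a passed in both genotypes under every alternative run. The cause of these shifts was not tested, beyond what the settings themselves alter.

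The labels used here do not say whether replicate numbers pair the samples. Deviations of same-numbered libraries correlated between -0.265 and 0.241 across genes, and those of differently numbered libraries between -0.304 and 0.337. A replicate block called 1, 1, 7, 0 and 0 of the 30 genes for cuprizone in WT, cuprizone in AHR CKO, the genotypes under cuprizone, the genotypes without it and the interaction. Rab3a and Neurod6 were the genes it lost under cuprizone. All genes called between the genotypes under cuprizone numbered 2747 as reported and 1806 with the block. All genes called between the genotypes without cuprizone numbered 851 as reported and 51 with the block.

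Log2 changes that turned their sign were mostly small. Under quantile normalization the values were, for cuprizone in WT (Slc17a7 -0.015, Bsn 0.0061), for AHR CKO against WT under cuprizone (Snap25 -0.11), for AHR CKO against WT without cuprizone (Slc17a7 -0.11), for the interaction (Nrgn -0.026). Under sample quality weights the values were, for cuprizone in WT (Slc17a7 -0.029, Grin2b 0.087, Bsn 0.0055, Homer1 0.067), for cuprizone in AHR CKO (Slc17a7 0.17, Nrgn 0.16, Neurod6 0.055, Rab3a 0.0077), for AHR CKO against WT under cuprizone (Slc17a7 0.010), for AHR CKO against WT without cuprizone (Slc17a7 -0.19, Neurod6 -0.13), for the interaction (Slc17a7 0.20). Under the length and GC correction the values were, for cuprizone in WT (Slc17a7 -0.012, Grin2b 0.031, Bsn 0.0080, Gria2 0.15), for AHR CKO against WT under cuprizone (Map1b 0.024), for AHR CKO against WT without cuprizone (Slc17a7 -0.017, Camk2a 0.061, Gria2 0.053), for the interaction (Nrgn -0.023). Under TPM the values were, for AHR CKO against WT under cuprizone (Snap25 -0.067). Under median-of-ratios scaling the values were, for AHR CKO against WT without cuprizone (Camk2a 0.0037). With single libraries left out, the lowest and highest values of genes that turned were, for cuprizone in WT Nrgn -0.35 to 0.018, Bsn -0.15 to 0.079, Slc17a7 -0.17 to 0.30, Grin2b -0.28 to 0.20, Gria2 -0.17 to 0.051. They were, for cuprizone in AHR CKO Slc17a7 -0.30 to 0.15, Rab3a -0.17 to 0.043, Nrgn -0.27 to 0.17. They were, for AHR CKO against WT under cuprizone Slc17a7 -0.31 to 0.16, Snap25 -0.12 to 0.19. They were, for AHR CKO against WT without cuprizone Camk2a -0.13 to 0.043, Slc17a7 -0.16 to 0.28, Neurod6 -0.10 to 0.28. They were, for the interaction Slc17a7 -0.40 to 0.11, Nrgn -0.10 to 0.33.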
